A study of Mus musculus with 6 samples.

Results

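A group of 10 genes whose products make, lengthen and desaturate fatty acids was examined in R848-stimulated mouse macrophage cultures pretreated with a KAT8 inhibitor or with its solvent control. All 10 transcripts were lower with the inhibitor. The desaturase Fads2, the elongase Elovl6, the desaturase Scd2 and the fatty acid synthase Fasn fell 2.45-fold to 3.10-fold. Acly, Acaca, Scd1 and Fads1 fell 1.47-fold to 1.74-fold, and Srebf1 and Elovl5 fell 1.25-fold and 1.18-fold. The genes were taken by symbol (Srebf1, Acly, Acaca, Fasn, Scd1, Scd2, Elovl5, Elovl6, Fads1 and Fads2), and all 10 were found among the 34745 rows of the count table and among the 13815 genes that passed the filter on low counts.

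The cells were wild-type bone marrow-derived macrophages, grown from mouse bone marrow with the growth factor M-CSF at 20 ng/ml. R848 (resiquimod), a small-molecule agonist of endosomal Toll-like receptors, was given to every culture at 100 ng/ml for 6 h, so all 6 libraries come from stimulated cells. The DMSO group (3 libraries) had been pretreated with the solvent alone, and the KAT8 inhibitor group (3 libraries) with an inhibitor of KAT8, a lysine acetyltransferase of histone H4. The labels give no compound name, dose, length of pretreatment, age, strain or pooling, and nothing says that replicates came from separate mice, so the tests weigh the groups against the spread of these 3 libraries each, and that spread may be purely technical.

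Fatty acid synthesis starts in the cytosol, where ATP-citrate lyase (Acly) makes acetyl-CoA from citrate, acetyl-CoA carboxylase (Acaca) turns it into malonyl-CoA, and fatty acid synthase (Fasn) joins these units into palmitate. Elongases of the endoplasmic reticulum then lengthen the chains and desaturases make them unsaturated, Scd1 and Scd2 in saturated chains and Fads1 and Fads2 in polyunsaturated ones. Transcription of these enzymes is driven by SREBP1, the product of Srebf1, whose own gene is a target of liver X receptors and of SREBP. In macrophages the products shape the membrane and are precursors of lipid mediators.

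Promoter sequence of 7 of the 10 genes was given by RefSeq (GRCm38.p6), in 9 windows. Scd1, Scd2 and Fads1 were not among them. The only window of Acaca (chr11:84195188-84195437) lies inside the gene, which starts at 84129672, so it may not describe the main promoter. Stretches upstream of 4 transcription starts are shown because they cover the regulator and enzymes of its pathway that fell by different amounts, from Elovl5 to Fasn. The windows of Acaca and Elovl6, which are not shown, hold none of the boxes marked below, while all 4 stretches shown hold them. Each is written 5′ to 3′ on the strand of its gene and ends at the base before the transcription start, except that of Elovl5, which ends 1 base earlier. Capitals mark the boxes CCAAT (bound by NF-Y, a partner of SREBP) and GGGCGG (bound by Sp1), or their reverse complements ATTGG and CCGCCC.
Srebf1, the most downstream of 3 starts, minus strand, chr11:60210472-60210721: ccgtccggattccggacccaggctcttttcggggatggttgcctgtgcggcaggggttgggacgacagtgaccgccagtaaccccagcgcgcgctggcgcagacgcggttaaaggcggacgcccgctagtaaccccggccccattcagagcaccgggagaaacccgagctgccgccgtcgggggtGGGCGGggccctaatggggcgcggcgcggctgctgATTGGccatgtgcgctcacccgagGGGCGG
Acly, minus strand, chr11:100528001-100528250: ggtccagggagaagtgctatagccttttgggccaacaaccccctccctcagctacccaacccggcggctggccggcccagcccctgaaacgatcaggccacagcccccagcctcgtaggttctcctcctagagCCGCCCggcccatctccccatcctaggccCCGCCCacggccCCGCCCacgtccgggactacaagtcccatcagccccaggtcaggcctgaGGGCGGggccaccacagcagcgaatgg
Fasn, minus strand, chr11:120824548-120824797: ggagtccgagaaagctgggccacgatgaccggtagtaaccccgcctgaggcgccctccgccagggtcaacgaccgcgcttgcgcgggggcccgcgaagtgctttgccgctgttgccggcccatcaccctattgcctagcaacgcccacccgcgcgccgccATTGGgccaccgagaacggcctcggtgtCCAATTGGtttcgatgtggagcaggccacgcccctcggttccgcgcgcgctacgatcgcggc
Elovl5, plus strand, chr9:77917115-77917363: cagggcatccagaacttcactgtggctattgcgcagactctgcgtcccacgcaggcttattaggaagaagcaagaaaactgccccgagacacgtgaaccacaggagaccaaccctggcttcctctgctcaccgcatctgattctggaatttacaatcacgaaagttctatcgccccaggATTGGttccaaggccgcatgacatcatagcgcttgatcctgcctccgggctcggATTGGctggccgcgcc

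The 250 bases upstream of each start were searched on both strands. A CCAAT box was found for 3 of the 7 genes, namely Srebf1, Fasn and Elovl5, against 37.5% of the 27025 genes in the promoter table. In Fasn 2 of the 3 CCAAT matches overlap each other, on opposite strands. A GGGCGG box was found for 3 of the 7, namely Srebf1, Acly and Fads2, against 35.4% of genes. The SREBP site TCACNCCAC, with GTGGNGTGA on the other strand, was in none of the 9 windows and in 1.05% of all 32851 windows. These matches describe letters only, and no match says only that these letters are not in this window. The windows of Acly, Acaca, Elovl6 and Fads2 held no CCAAT box. A link between either box and the size of the fall was not tested.

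Depth was similar between groups, with 18441352 to 24429778 counts per DMSO library and 23037820 to 25089320 per inhibitor library. Of 10 macrophage markers, 8 were called lower with the inhibitor (adjusted p under 0.05), beside 26.5% of all tested genes. The 10 summed to 13969 to 16322 CPM with DMSO and 9516 to 9663 CPM with the inhibitor. Lyz2 (lysozyme), the highest, weighed most in this sum, at 8596 ± 632 CPM (SD, n = 3) with DMSO and 4190 ± 37.1 CPM with the inhibitor. Csf1r (474 ± 30.2 and 463 ± 4.9 CPM) and Cd68 (1504 ± 178 and 1673 ± 35.6 CPM) were not called. CPM, the usual count per unit of library size, was scaled by the trimmed mean of M values (TMM). The cultures also held transcripts of stromal cells. Of 10 stromal markers, 8 were called lower, beside the same 26.5% of tested genes. The sum of the 10 went from 4950 to 5813 CPM down to 2157 to 2306 CPM. Col1a2, a chain of type I collagen, was the highest of them, at 1701 ± 115 CPM (SD, n = 3) with DMSO and 669 ± 20.2 CPM with the inhibitor, while Pdgfra, a receptor that marks fibroblasts, was at 418 ± 30.3 and 442 ± 20.5 CPM. Adipocyte markers, among them Adipoq, Lep and Plin1, were at 0 in every DMSO library and summed to at most 0.732 CPM in an inhibitor library. Markers of neutrophils, T and NK cells, B cells, dendritic cells and the erythroid and megakaryocyte lineages, led by S100a8, Lck, Ighm, Zbtb46 and Pf4, each summed to at most 20.5 CPM in any library. Stromal cells also make fatty acids, and in bulk RNA fewer cells of a type and less RNA per cell cannot be told apart. The part of the shift in stromal and macrophage markers in the results that follow was not tested.

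**Figure D1:**
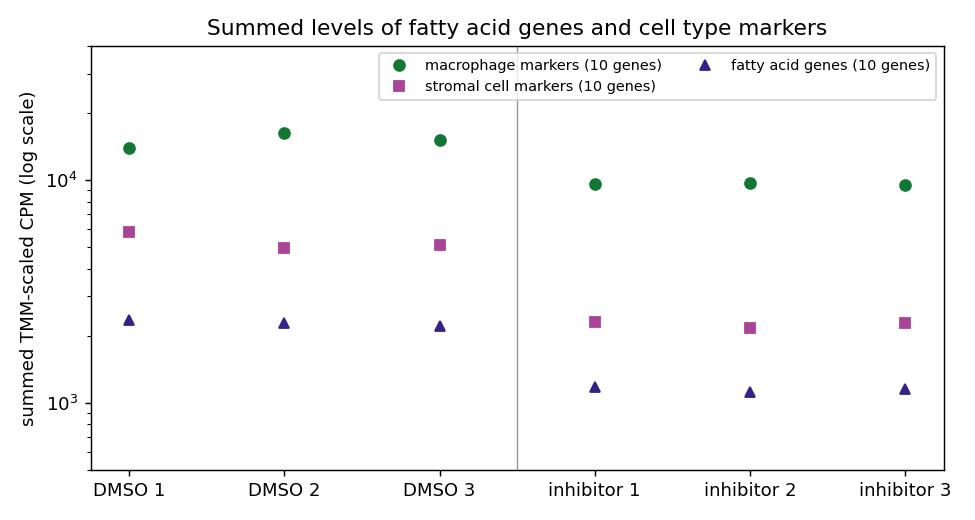
Summed TMM-scaled CPM (log scale, y axis) of the 10 fatty acid genes, 10 macrophage markers and 10 stromal markers in each of the 6 libraries (x axis). All 3 sums are lower in every inhibitor library than in every DMSO library, and the fatty acid genes sum to 2212 to 2353 CPM with DMSO and 1119 to 1177 CPM with the inhibitor.

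Summed over the 10 genes, the level was 2353, 2286 and 2212 CPM after DMSO and 1177, 1119 and 1149 CPM after the inhibitor. All 10 genes were called lower (edgeR's quasi-likelihood test, Benjamini-Hochberg adjusted p under 0.05 over all 13815 tested genes), where 26.5% of all tested genes were called lower. At least 2-fold lower were 4 of the 10, against 6.86% of tested genes. In all 10 each inhibitor library lay below each DMSO library, which held for 30.3% of tested genes. Their median log2 fold change was −0.75, beside 0.01 for all tested genes. The fold changes ranged from −1.63 to −0.23 on the log2 scale.

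Srebf1, the regulator, fell less than every enzyme but Elovl5. The 3 DMSO libraries held it at 85.4, 85.7 and 87.0 CPM, and those of the inhibitor at 73.0, 65.7 and 68.1 CPM. The groups did not overlap, and the highest inhibitor library was the first. The log2 fold change was −0.32 (SE 0.051, adjusted p = 0.00105, lower in 3 of 3 libraries). Srebf1 (ENSMUSG00000020538, chromosome 11, 60199089 to 60222581, minus strand) gives rise to the SREBP-1a and SREBP-1c messengers from different starts, which a count per gene does not separate. Of its exons 109 bases overlap Rai1 on the opposite strand, a gene at 21.5 ± 2.70 CPM with DMSO and 18 ± 1.14 CPM with the inhibitor, a difference that did not pass (adjusted p = 0.0694).

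**Figure D2:**
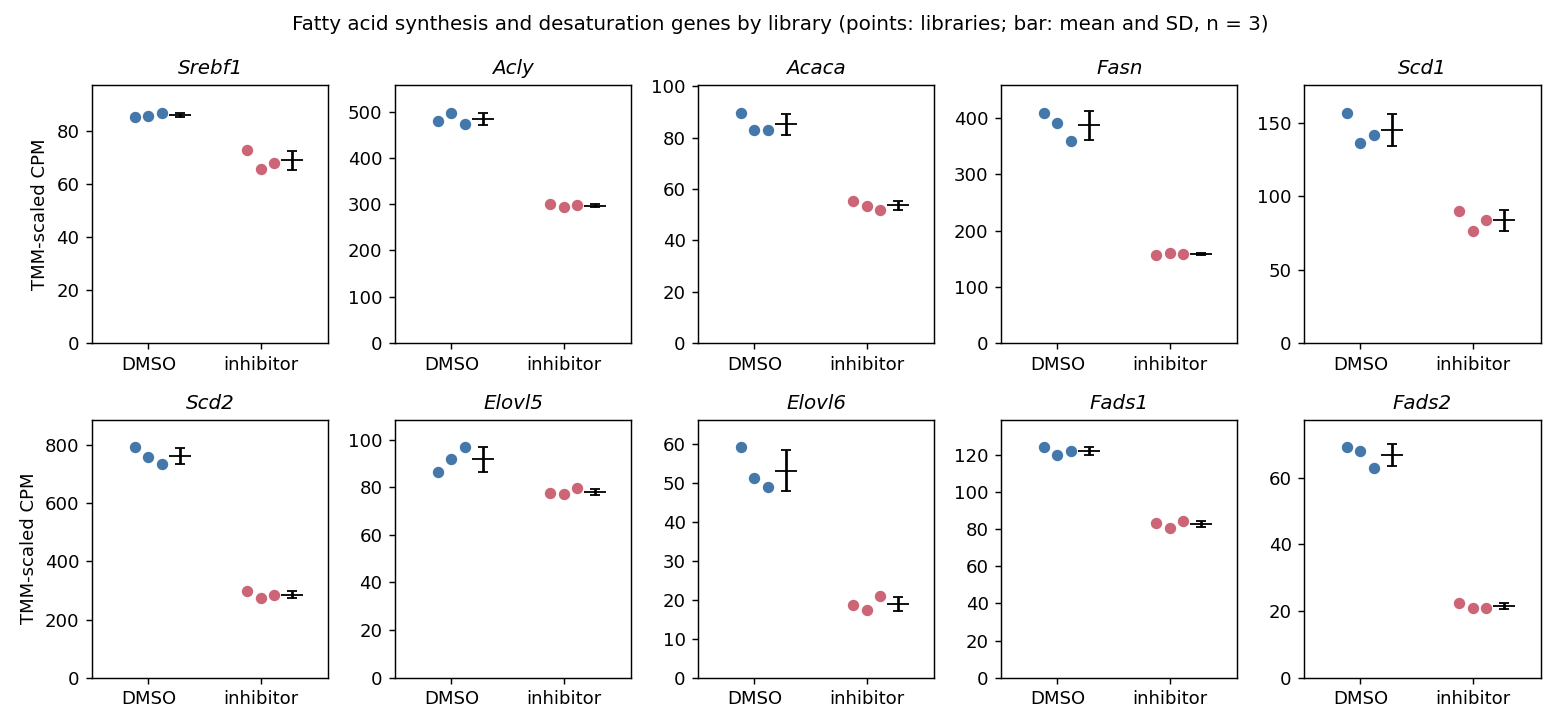
TMM-scaled CPM (y axis, from 0) of each of the 10 genes, with 3 DMSO libraries in blue and 3 KAT8 inhibitor libraries in red; the bar beside the points is the mean with the SD. No gene has overlapping groups, and the gap is widest for Fads2, whose lowest DMSO library was 2.80 times its highest inhibitor library, and narrowest for Elovl5, at 1.09 times.

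Acly and Acaca supply the building blocks of the chain. Acly (ENSMUSG00000020917, chromosome 11, 100476353 to 100528000, minus strand) stood at 479, 498 and 473 CPM with DMSO and at 300, 293 and 298 CPM with the inhibitor. Its log2 fold change was −0.70, with SE 0.039 and adjusted p = 3.76e-06. The inhibitor libraries were tightly grouped, with an SD of 3.89 CPM. Acaca (ENSMUSG00000020532, chromosome 11, 84129672 to 84401651, plus strand), the step that commits acetyl-CoA to fatty acids, went from 89.8, 82.9 and 82.9 CPM to 55.5, 53.3 and 52.0 CPM, or by −0.67 on the log2 scale (SE 0.053, adjusted p = 2.36e-05). Acly and Acaca were left at 61.5% and 62.9% of their DMSO level. Of the 50-base words of the longest Acaca transcript, 52.6% also occur in transcripts of Gm5182. No row of the count table was matched to Gm5182. The count of Acaca therefore depends on how reads with several matches were treated. For each of the other 9 genes at most 4.66% of words were shared.

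Fasn, the multi-domain enzyme that builds palmitate, fell more than the suppliers of its substrates. Its level was 410, 392 and 360 CPM with DMSO and 156, 160 and 158 CPM with the inhibitor. The inhibitor libraries lay within 4 CPM of each other, below every DMSO library. The log2 fold change was −1.29 (SE 0.053, adjusted p = 9.57e-07). Fasn (ENSMUSG00000025153) lies on the minus strand of chromosome 11 at 120805846 to 120824547, and like Acly and Acaca it shares that chromosome with Srebf1.

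Both elongases fell, by very different amounts. Elovl6, which lengthens palmitate and other saturated and monounsaturated chains, had 59.2, 51.3 and 49.1 CPM with DMSO and 18.6, 17.5 and 21 CPM with the inhibitor, or −1.48 on the log2 scale (SE 0.10, adjusted p = 8.52e-06). Elovl5, which lengthens polyunsaturated chains, had 86.5, 91.9 and 96.8 CPM and 77.7, 77.0 and 79.6 CPM, or −0.23 (SE 0.051, adjusted p = 0.00570). Elovl5 was the least changed of the 10, and with scaling by library totals alone, which raised the median of all tested genes from 0.01 to 0.12, it no longer passed (log2 fold change −0.12, adjusted p = 0.0605; range over all alternatives 0.00204 to 0.0605). Elovl6 (ENSMUSG00000041220) lies on chromosome 3, 129532355 to 129638495, and Elovl5 (ENSMUSG00000032349) on chromosome 9, 77917364 to 77984519, both read from the plus strand. Transcripts of Elovl1, which acts on very long chains, were at 131 ± 8.96 CPM with DMSO and 122 ± 3.92 CPM with the inhibitor and did not pass (adjusted p = 0.182).

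Scd1 and Scd2, the stearoyl-CoA desaturases that make oleate and palmitoleate, lie in 1 gene cluster of 204.6 kb on chromosome 19 with Scd3 and Scd4. Scd2 (ENSMUSG00000025203, 44293674 to 44306864, plus strand) was at 793, 761 and 736 CPM with DMSO, the most counts of the 10 genes there, and at 300, 275 and 283 CPM with the inhibitor, where Acly had more. Its log2 fold change was −1.42 (SE 0.049, adjusted p = 5.04e-07). Every inhibitor library was below every DMSO library by a wide margin. Scd1 (ENSMUSG00000037071, 44394455 to 44407879, minus strand) had 157, 136 and 142 CPM with DMSO and 90.0, 76.3 and 84.1 CPM with the inhibitor, and changed by −0.80 on the log2 scale (SE 0.075, adjusted p = 5.87e-05). The neighbours were nearly silent, with at most 3 counts of Scd3 and 14 counts of Scd4 in a library, and neither passed the filter on low counts. Of the 50-base words in the longest transcripts, 4.66% of those of Scd1 and 4.01% of those of Scd2 occur in another gene, mostly in the other Scd genes.

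Fads1 and Fads2, the desaturases that turn the essential fatty acids of the diet into arachidonate and related chains, lie on opposite strands in a cluster of 155.3 kb on the same chromosome, with Fads3. Fads2 (ENSMUSG00000024665, 10062765 to 10101746, minus strand), which acts early in that route, went from 69.1, 68.1 and 62.9 CPM with DMSO to 22.5, 20.9 and 21 CPM with the inhibitor, or by −1.63 on the log2 scale (SE 0.063, adjusted p = 7.41e-07). This was the largest fall of the 10, and 2.48% of all tested genes had a lower fold change. Fads1 (ENSMUSG00000010663, 10182888 to 10196877, plus strand), which acts later, went from 124, 120 and 122 CPM to 83.3, 80.7 and 84.1 CPM, or by −0.56 (SE 0.041, adjusted p = 1.53e-05). Fads3, their neighbour, was at 41.5 ± 2.40 CPM and fell to 23.7 ± 1.27 CPM (SD, n = 3), with a log2 fold change of −0.81 and adjusted p = 4.22e-05. All 3 genes of this cluster were called lower, beside 26.5% of all tested genes.

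Genes with related roles were compared within each library as a ratio of counts, which does not depend on scaling between libraries. Counts of Scd1 made up 16.5%, 15.2% and 16.2% of the sum of Scd1 and Scd2 after DMSO and 23.1%, 21.7% and 22.9% after the inhibitor. The ratio of Scd1 to Scd2 was higher in each inhibitor library, by 0.62 on the log2 scale (from −2.40 ± 0.076 to −1.78 ± 0.062, SD, n = 3). Fads1 made up 63.7% to 65.9% of the sum of Fads1 and Fads2 with DMSO and 78.7% to 80.0% with the inhibitor. That ratio was higher by 1.07 on the log2 scale (from 0.87 ± 0.073 to 1.94 ± 0.055). The ratio of Elovl6 to Elovl5 was lower, with a log2 difference of −1.25 (from −0.79 ± 0.22 to −2.04 ± 0.11), and Elovl6 dropped from 33.7% to 40.6% of the sum to 18.5% to 20.9%. The ratio of Fasn to Acaca was lower, with a log2 difference of −0.62 (from 2.18 ± 0.06 to 1.56 ± 0.058). In all 4 ratios the groups did not overlap, and each gave p = 0.1 in a two-sided exact permutation test (adjusted p = 0.1 over the 4), the smallest value that 3 libraries against 3 can give. These shares compare counts, which grow with transcript length, and are not molar. The count of Acaca also depends on how reads with several matches were treated.

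**Figure D3:**
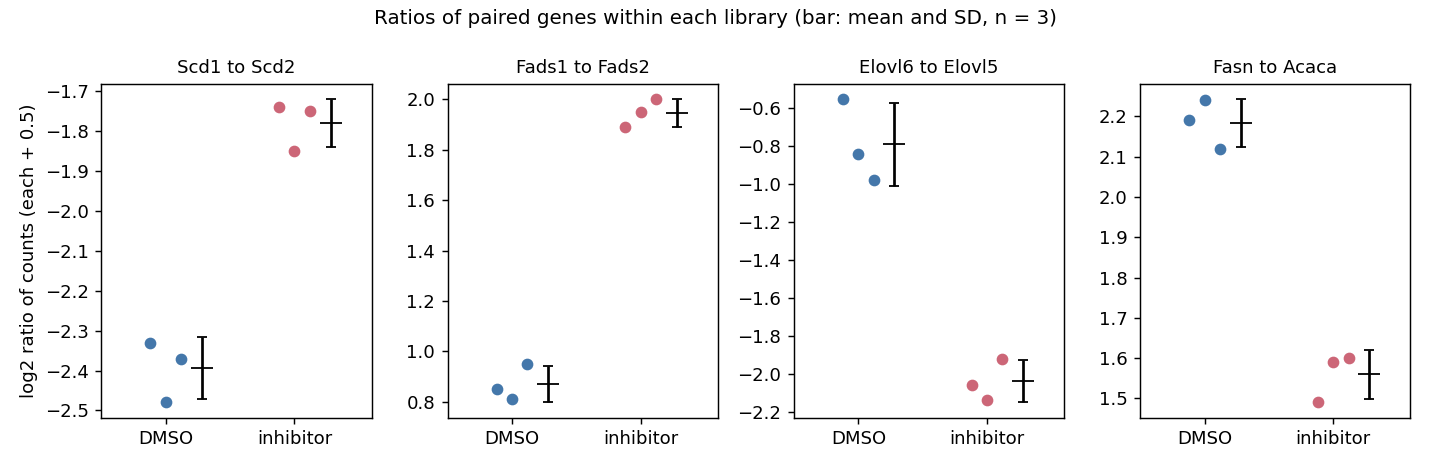
Log2 ratio of the counts of 2 genes within each library (y axis, each count plus 0.5; the scale differs between panels), with DMSO in blue and KAT8 inhibitor in red; the bar is the mean with the SD. Scd1 to Scd2 and Fads1 to Fads2 are higher in all 3 inhibitor libraries, and Elovl6 to Elovl5 and Fasn to Acaca are lower in all 3.

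Levels were compared between genes per kilobase of merged exons. With DMSO, Scd2 was highest at 140 ± 5.16 CPM per kb (SD, n = 3), followed by Acly at 91.6 ± 2.44, Fasn at 35.4 ± 2.28 and Scd1 at 29.7 ± 2.21 CPM per kb. Elovl5 and Fads1 came next, at 26 ± 1.46 and 25.3 ± 0.469 CPM per kb, and were the only neighbours in this order whose libraries overlapped. Fads2, Srebf1, Elovl6 and Acaca were lower, at 20.2, 15.3, 8.27 and 4.99 CPM per kb. With the inhibitor Acly, at 56.3 ± 0.737 CPM per kb, stood above Scd2, at 52.3 ± 2.32, and Fasn moved from the third place to the sixth, at 14.5 ± 0.156. Scd1 and Fads1, at 17.1 and 17.2 CPM per kb, overlapped there, as did Acaca and Elovl6, at 3.14 and 2.96. The order depends on the length used: per kilobase of the longest transcript, the mean of Fads1 stood above those of Elovl5 and Scd1 with DMSO, and Acaca, whose merged exons span 17074 bases, was at 8.96 in place of 4.99 CPM per kb. The place of Acaca also depends on how reads that match Gm5182 as well were treated.

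**Figure D4:**
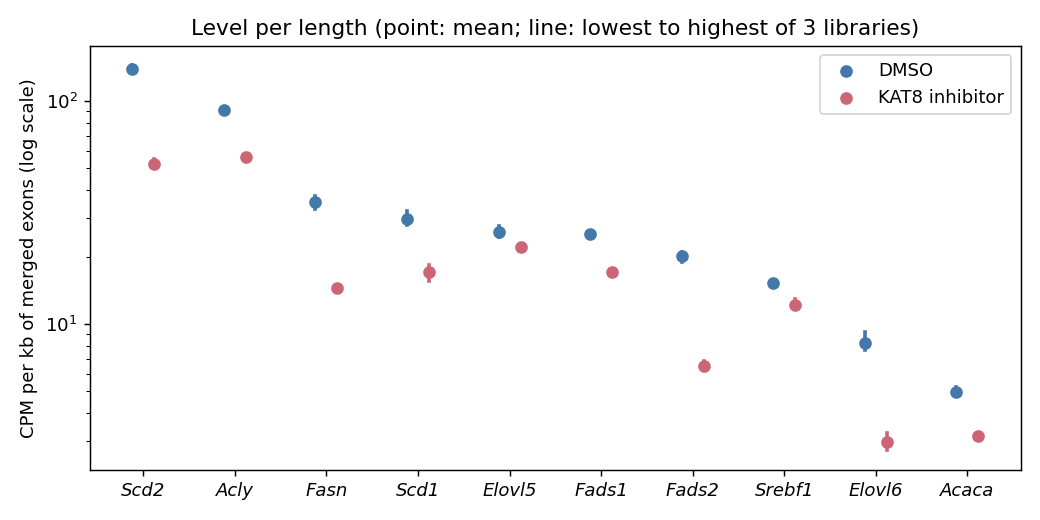
CPM per kilobase of merged exons (y axis, log scale) of the 10 genes, ordered by their DMSO level; points are means and lines run from the lowest to the highest of 3 libraries, with DMSO in blue and KAT8 inhibitor in red. Scd2 and Acly stand above the other genes in both groups and exchange places with the inhibitor.

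Of 22 tested genes that control SREBP, 7 fell and 4 rose (median log2 fold change 0.10), where 26.5% of all tested genes were called lower and 24.9% higher. These counts are near the shares over all genes, so the genes named here are described singly. Besides Scap, Mlx (0.49), Rxrb (0.27) and Erlin2 (0.20) rose. The falls included Insig1, which holds SREBP in the endoplasmic reticulum and is itself an SREBP target (from 311 ± 15.9 to 103 ± 7.82 CPM, adjusted p = 9.61e-07), and Srebf2, the paralogue of Srebf1 that drives cholesterol synthesis (from 342 ± 14.4 to 129 ± 1.61 CPM, adjusted p = 3.88e-07). The log2 fold change of Srebf2 was −1.40, beside −0.32 for Srebf1, a difference that was not itself tested. Nr1h3, which encodes the liver X receptor alpha, fell from 63.8 ± 7.03 to 40.2 ± 2.39 CPM. Scap, the escort of SREBP, rose from 84.2 ± 3.40 to 94.4 ± 2.62 CPM (log2 fold change 0.16, adjusted p = 0.0196), and the protease gene Mbtps1, which cleaves SREBP, fell from 116 ± 0.644 to 74.0 ± 4.01 CPM. Genes of this and the following lists that are outside the 3 largest changes were chosen after their values were seen. With library totals alone, 10 in place of 4 genes of this list rose.

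Of 19 tested genes of precursor and NADPH supply, 6 were lower and 7 higher (median 0.02), again near the 26.5% and 24.9% of all tested genes. Mid1ip1, which promotes the assembly of acetyl-CoA carboxylase into its active form, fell from 50.5 ± 3.85 to 24.6 ± 0.524 CPM, and Brca1, a DNA repair gene listed because its protein binds phosphorylated acetyl-CoA carboxylase, fell from 10.2 ± 1.14 to 5.87 ± 0.487 CPM. Pgd, an NADPH-producing dehydrogenase of the pentose phosphate pathway, rose from 824 ± 30.3 to 1244 ± 42.6 CPM (log2 fold change 0.60, SE 0.046, adjusted p = 2.19e-05). G6pdx, the first enzyme of that pathway, also rose, by 0.36 on the log2 scale.

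Partners of the elongases and desaturases made short lists, whose counts are read against the same 26.5% lower and 24.9% higher. Of 8 other elongation genes 3 fell and 3 rose (median −0.33), and of 8 other desaturase and electron donor genes 3 fell and 1 rose (median 0.09). Tecr, the reductase of the last elongation step, fell from 122 ± 6.31 to 76.8 ± 3.12 CPM, and the dehydratases Hacd1 and Hacd2 fell, with log2 fold changes of −0.57 and −0.56. Elovl7 (1.43, from a level of 0.843 CPM), Hacd4 (0.31) and Hacd3 (0.29) rose. Cyb5r3, which passes electrons to the desaturases through cytochrome b5, fell 2.00-fold, from 358 ± 16.0 to 179 ± 1.03 CPM (adjusted p = 1.30e-06), and Cyb5b, a cytochrome b5, fell 1.34-fold, while Cyb5a, another, rose by 0.29 on the log2 scale. Hsd17b12, the ketoreductase of elongation, was at 154, 265 and 276 CPM after DMSO and at 202, 110 and 115 CPM after the inhibitor. The groups overlapped, replicate 1 of each lying nearer to the other group, and it did not pass (adjusted p = 0.0631). 

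The counts of the following lists are also read against 26.5% of all tested genes called lower and 24.9% higher. Downstream, 12 of 24 acyl-CoA synthetases and acyltransferases fell and 3 rose (median −0.22). Lpcat4, which acylates lysophospholipids, fell from 33.4 ± 2.40 to 17.8 ± 0.475 CPM, and Acsl3 and Acsl1, which activate fatty acids for use, fell 1.72-fold and 1.67-fold. Those that rose were Lpin2 (0.64), Slc27a4 (0.27) and Dgat1 (0.24). Fatty acid oxidation had 7 of 24 genes higher and 4 lower (median 0.07), beside 24.9% and 26.5% of all tested genes, so that no shift of the list is read from these counts. Ehhadh, a peroxisomal enzyme, rose from 4.18 ± 0.614 to 8.04 ± 0.167 CPM, while Etfb, a subunit of the electron transfer flavoprotein, and Eci1, an enoyl-CoA isomerase, fell, with log2 fold changes of −1.13 and −0.59, as did Echs1 (−0.57) and Etfa (−0.23). Cholesterol synthesis and uptake, the SREBP2 branch, had 21 of 22 genes lower and none higher, with a median of −1.44 beside −0.75 for the 10 fatty acid genes. Ebp, the gene that did not pass, had a log2 fold change of −0.17. Idi1, Fdps and Sqle had the largest changes there, at −2.37, −2.33 and −1.98. Of 9 other liver X receptor targets 7 fell (median −0.43). Among the 7 were Nr1h3, also counted with the genes that control SREBP, and Lpcat3, also counted with the acyltransferases. Abcg1 was not called (log2 fold change −0.09, adjusted p = 0.271). Mylip (0.19) was called higher, but not with DESeq2, at an adjusted p under 0.01 or in 5 of the 6 fits that left out 1 library. Apoe (−1.30) and Pltp (−0.97), which carry or transfer lipids outside the cell, fell most.

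**Figure D5:**
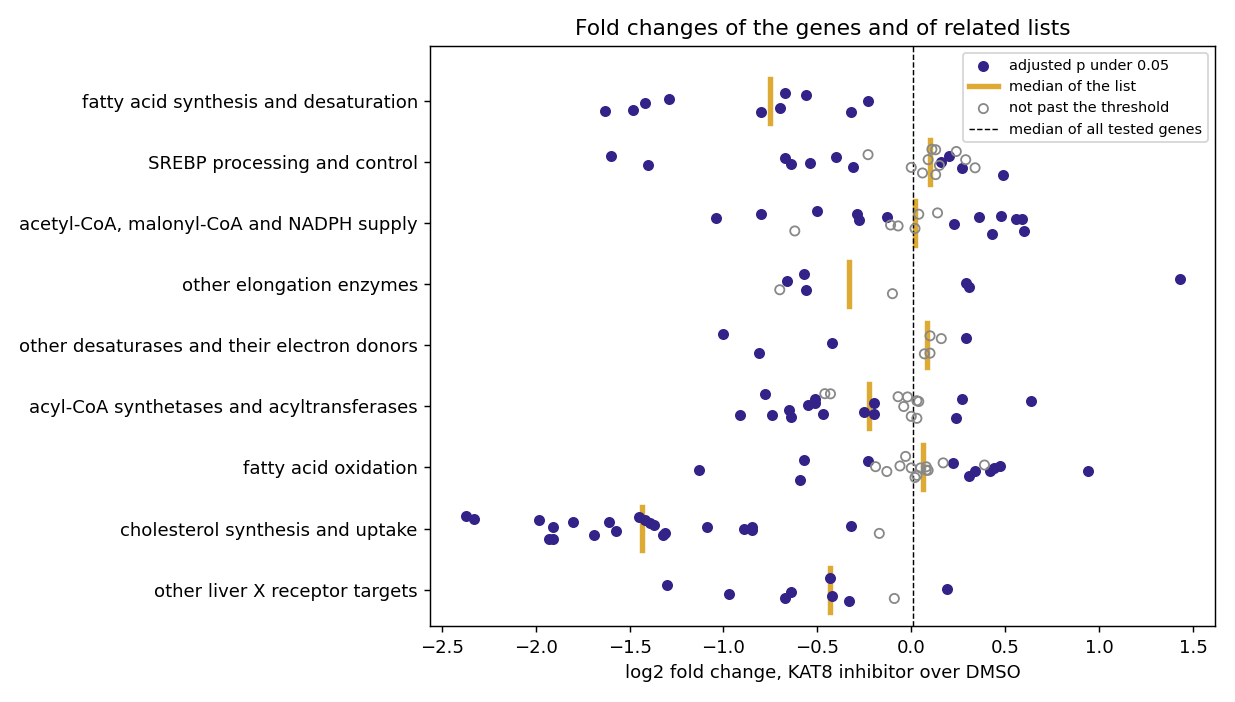
Log2 fold change of KAT8 inhibitor over DMSO (x axis) for the tested genes of each list (rows), with filled points for an adjusted p under 0.05, open points for genes that did not pass, a bar at the median of each list and a dashed line at the median of all tested genes (0.01). All 10 fatty acid genes lie left of the dashed line, as do all 22 cholesterol genes, while the lists for SREBP control, precursor supply and oxidation lie on both sides.

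The tested genes most like the 10 in pattern were found from log2 CPM centred over the 6 libraries, as those with the smallest root mean square difference from the mean profile of the 10, among 10354 named genes at 5 CPM or more. They were Col6a1, a collagen chain (0.024), Sorbs3, an adhesion adaptor (0.026), Rras2, a small GTPase (0.027), Col18a1, another collagen chain (0.033), and Plxnb2, a semaphorin receptor (0.035), with fold changes of −0.95 to −0.86 on the log2 scale. Of the candidates, 1154 were at least as near to the mean profile as the median member, which was 0.227 away. Profiles this near were common in these 6 libraries. Of the stromal markers 8 of 10, Col1a2 among them, were called lower, and so were 8 of 10 macrophage markers, beside 26.5% of all tested genes. The median log2 fold change was −1.04 for the stromal and −0.73 for the macrophage markers. A link between either list and the 10 genes was not tested.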

How the data were processed

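RNA from 3 DMSO and 3 KAT8 inhibitor cultures was sequenced after mRNA capture, per the labels' protocols. The authors deposited raw read counts per Ensembl gene, without normalization. The build was mm10, and the tools named are StringTie 1.3.0, edgeR and HISAT2, per the submitters' processing notes. Which counter, annotation release and strand setting were used, and how reads with several matches were treated, is not given in the sources used here, so genes with copies or overlaps are less certain. Symbols were matched by Ensembl ID for 34267 of 34745 rows; the 478 rows without a symbol stayed in totals and tests. Coordinates (counted from 1) and exon lengths are from GENCODE M21 of the same build.

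Differences were tested in R 4.3.3 with edgeR 4.0.16 (quasi-likelihood, TMM, filterByExpr with a minimum count of 10, pretreatment as the only factor) on all 6 libraries, with Benjamini-Hochberg adjustment over 13815 genes. The SE was derived from each log2 fold change and its F statistic. The filter kept 99.95% of counts. A count of 0 in a library allows up to 0.116 to 0.166 CPM, taking 3 counts as the limit; this covers counting error only. The procedure was tested on simulated data.

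Replicates were compared before averaging: between libraries, chi-square divided by its degrees of freedom came to 8.77 to 13.5 within groups and 80.3 to 96.5 between them, so none is a copy. The members and gene lists were chosen with earlier results of these data known. Named were all members, the genes nearest in profile, at most 3 called genes per pathway list with the largest change at 5 CPM or more, the highest gene of each marker list and the cluster neighbours. Other genes were chosen after their values were seen. Protein sequences were not used here.

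Alternatives left out each library in turn, used DESeq2 1.42.0, library totals or median-of-ratios size factors, dropped the filter or asked for a mean of 5 CPM, added a replicate block, removed GC and length trends with and without it, or asked for an adjusted p under 0.01.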

Additional observations from a re-analysis of the deposited data

How the results depend on the processing

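All 10 genes kept a negative fold change under all 15 alternatives, and 10 were called lower under each except library totals alone, where 9 were, Elovl5 having missed the threshold (log2 fold change −0.12). With the replicate number as a block, 10 were called lower and 3215 genes were higher and 3510 lower overall. Pairing by number was not seen: deviations of same-numbered libraries from their group means correlated at −0.034 to 0.024, beside −0.038 to 0.041 for other pairs. With 3 libraries per group this cannot exclude pairing, which the labels do not state. No sign of a ratio changed without any 1 library or with paired differences, which gave the same means. At an adjusted p under 0.01, 2257 in place of 3446 tested genes were higher. Library totals alone gave 4888 higher and 2842 lower genes, and removal of GC and length trends 4200 and 3287, in place of 3446 and 3667, so that 63.2% and 56.1% of calls were higher, against 48.4%. Per kilobase of the longest transcript, an alternative chosen after seeing the data, DMSO levels were 20.0 (Srebf1), 109 (Acly), 8.96 (Acaca), 38.5 (Fasn), 33.0 (Elovl5) and 35.2 CPM per kb (Fads1). Counts of calls in single lists moved by over 1.5 times in 17 cases. Mylip, the 1 liver X receptor target that rose, was lost with DESeq2, at an adjusted p under 0.01 and without any 1 of 5 libraries. Without DMSO replicate 1, 5 in place of 3 other elongation genes fell, and fatty acid oxidation had 2 in place of 4 genes lower without KAT8 inhibitor replicate 1 or 2. Genes at a few counts per library, such as Scd3 and Scd4, are too low at this depth for a comparison.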
